A study of Homo sapiens with 6 samples.

Results

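The nuclear genes for subunits of the mitochondrial respiratory chain and ATP synthase were examined in HepG2 cells, a human hepatoma line with hepatocyte-like gene expression, after exposure to formononetin, a plant isoflavone. A gene was a member when its current protein-coding symbol was SDHA, SDHB, SDHC, SDHD, CYC1 or UQCRFS1, or began with NDUFA, NDUFB, NDUFC, NDUFS, NDUFV, UQCRC, COX4I, COX5, COX6, COX7, COX8 or ATP5, with the NDUFAF assembly factors left out. This gave 85 genes of the 60564 Ensembl identifiers in the count table, of which 38 belong to complex I, 4 to complex II, 4 to complex III, 19 to complex IV and 20 to complex V, on 22 chromosomes. The complex I set includes the readthrough gene NDUFC2-KCTD14, and the complex V set includes the readthrough gene ATP5MF-PTCD1 and the ATP5MG-like gene ATP5MGL.

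RNA-seq was compared between 3 libraries of HepG2 cells given formononetin and 3 control libraries of HepG2 cells, both labelled wild type. The formononetin libraries came from cells exposed for 72 h at a dose that the labels write as 625 μm, a unit reported here as written. The control libraries are labelled DMEM, the medium in which all cells were grown with fetal calf serum and antibiotics. The labels name no solvent and no time for them, so a difference in time in culture cannot be told apart from the treatment. HepG2 is a single tumour-derived line, and the labels leave unsaid whether the libraries of a group are separate cultures. The p-values therefore rest on library-to-library spread that could be technical.

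Respiratory chain complexes sit in the inner mitochondrial membrane. Complexes I and II pass electrons from NADH and succinate to ubiquinone, complex III passes them on to cytochrome c, and complex IV delivers them to oxygen. Complexes I, III and IV pump protons, and complex V, the ATP synthase, uses the proton gradient to make ATP. Most subunits are encoded in the nucleus and imported, while 13 are encoded by mitochondrial DNA, so most complexes need products of both genomes.

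The libraries held 37465148 to 45682722 counts on named genes in the formononetin group and 30848848 to 36243606 in the control group. Levels are given as CPM (counts scaled to a fixed library total) after TMM scaling, which are shares of the RNA in a library, so in these bulk samples fewer cells of a type and less RNA per cell cannot be told apart. Control replicate 1 stood apart from the other control libraries on the second principal component. The hepatocyte marker list was present at high level, with APOB at 23516 ± 359 CPM in formononetin cells and 25652 ± 344 CPM in control cells (SD, n = 3 each). Of its 8 markers 6 were lower and HNF4A was higher in formononetin cells, and its summed level was 33869 to 35172 CPM in formononetin cells and 39469 to 40775 CPM in control cells. Its part in the results below was not tested. COL1A2, DCN and LUM of the fibroblast list, PTPRC and CD3E of the leukocyte list and MYL2 of the muscle list had no count in any library. Fibroblast markers summed to 3.81 to 4.58 CPM in formononetin cells and 12.9 to 15.0 CPM in control cells, almost all from PDGFRB. The muscle sum was up to 3.69 CPM in formononetin cells and 8.96 to 9.28 CPM in control cells. Its largest part was ACTA1, at means of 1.29 CPM in formononetin cells and 5.86 CPM in control cells. Endothelial markers summed to 23.9 to 28.1 CPM in formononetin cells and 22.1 to 25.6 CPM in control cells, almost all from PECAM1. Leukocyte markers summed to 976 to 1014 CPM in formononetin cells and 1199 to 1293 CPM in control cells, almost all from LYZ. CD68 of that list went the other way, at 6.72 ± 1.31 CPM in formononetin cells and 3.34 ± 0.831 CPM in control cells.

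Transcripts of the nuclear respiratory chain genes were mostly higher in formononetin cells, by small amounts. Of the 80 members with enough counts for a test, 28 rose, 1 fell and 51 did not pass an adjusted p of 0.05 in edgeR's quasi-likelihood test. The share that rose was 35.0%, against 12.0% of all 22230 genes tested, while 8.71% of all genes fell and 20.7% passed in either direction. The median standard error was 0.16 for all genes tested and 0.08 for tested members, so a change of the same size passed more easily in members. With a filter of 1 CPM in 3 libraries, 28 of 76 tested members and 15.7% of all genes rose. The same limit applies wherever a share of all genes is given below. The log2 fold change was above 0 for 70 members, 87.5% of those tested, against 48.7% of all genes tested and 55.4% of tested protein-coding genes. With upper quartile scaling 61 members were above 0 and 19 below, and without formononetin replicate 3 the counts were 65 and 15. The median log2 fold change was 0.24, a 1.18-fold higher level, with quartiles of 0.09 and 0.33. It was -0.01 over all genes tested and 0.04 over tested protein-coding genes. No tested member reached an absolute log2 fold change of 1.

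The groups separated without overlap for 46 members. Every formononetin library lay above every control library for 43 members, 53.8% of those tested, against 20.8% of all genes. NDUFS7, UQCRC2 and ATP5MC2 had every formononetin library below every control library, a pattern that 18.7% of all genes showed, and 34 members overlapped. The 28 risen members lay between 0.19 and 0.71 on the log2 scale, with a median of 0.38, a 1.3-fold higher level. Among the members that missed the threshold, 9 had an unadjusted p under 0.05.

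Summed over the 85 members, the level was 4858, 4949.6 and 4978 CPM in the formononetin libraries and 4236, 4285 and 4261 CPM in the control libraries. The lowest formononetin library therefore lay above the highest control library, and the ratio of the means was 1.16. The ratio was 1.16 for complex I, 1.22 for complex II, 1.08 for complex III, 1.13 for complex IV and 1.18 for complex V. With the counts of 4 SDHA pseudogenes added, a check chosen after seeing the data, complex II averaged 492 CPM in the formononetin libraries and 428 CPM in the control libraries, a lower ratio than for complexes I and V. With TMM scaling, the summed levels overlapped between groups in none of the 5 complexes. Complex III came closest, with 672 CPM in the lowest formononetin library and 646 CPM in the highest control library. Sums under other scalings were not made.

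**Figure D1:**
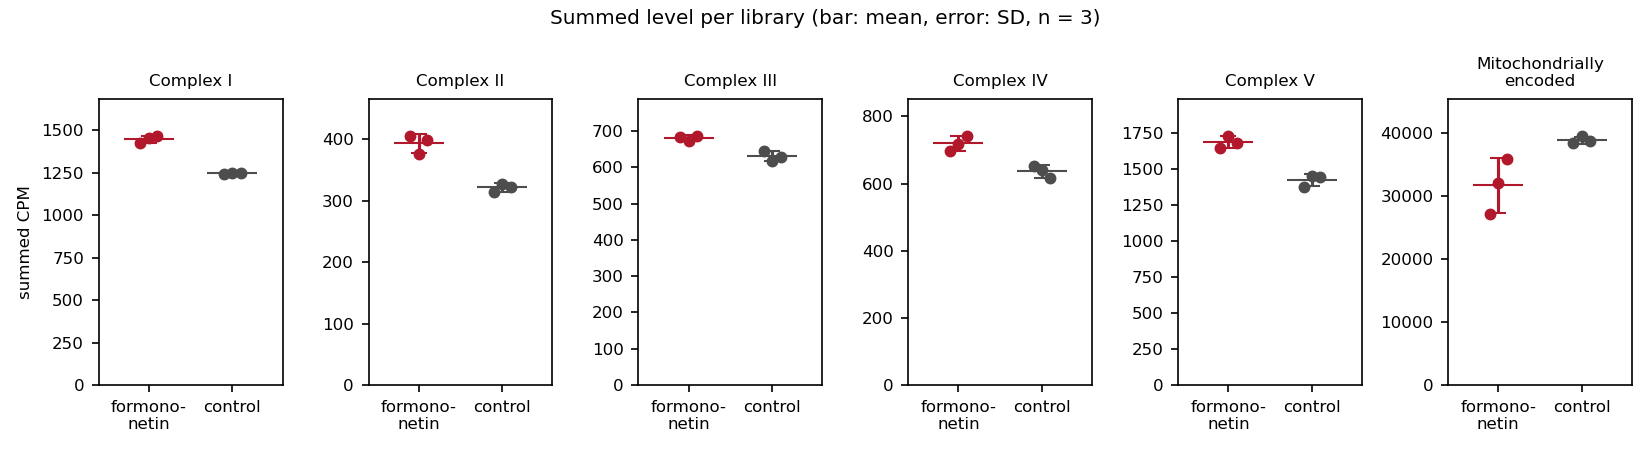
Summed level in CPM for the members of each complex and for the 13 mitochondrially encoded subunits, by library, with formononetin at the left (red) and control at the right (grey), and bars for the mean and SD of 3 libraries. With TMM scaling, nuclear sums are higher in formononetin libraries for every complex. The mitochondrially encoded sum is lower, 27151 to 35883 CPM in formononetin and 38408 to 39496 CPM in control libraries.

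Another scaling changed how many members passed. With upper quartile scaling, which lowered the median of all genes to -0.09, 18 members rose and 3 fell, against 28 and 1 with TMM, and over all genes 1813 rose and 2737 fell, against 2659 and 1937. Without formononetin replicate 1 or without formononetin replicate 3, 18 members rose. Without control replicate 1, the library that stood apart, 25 members rose and ATP5MC2 did not pass.

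**Figure D2:**
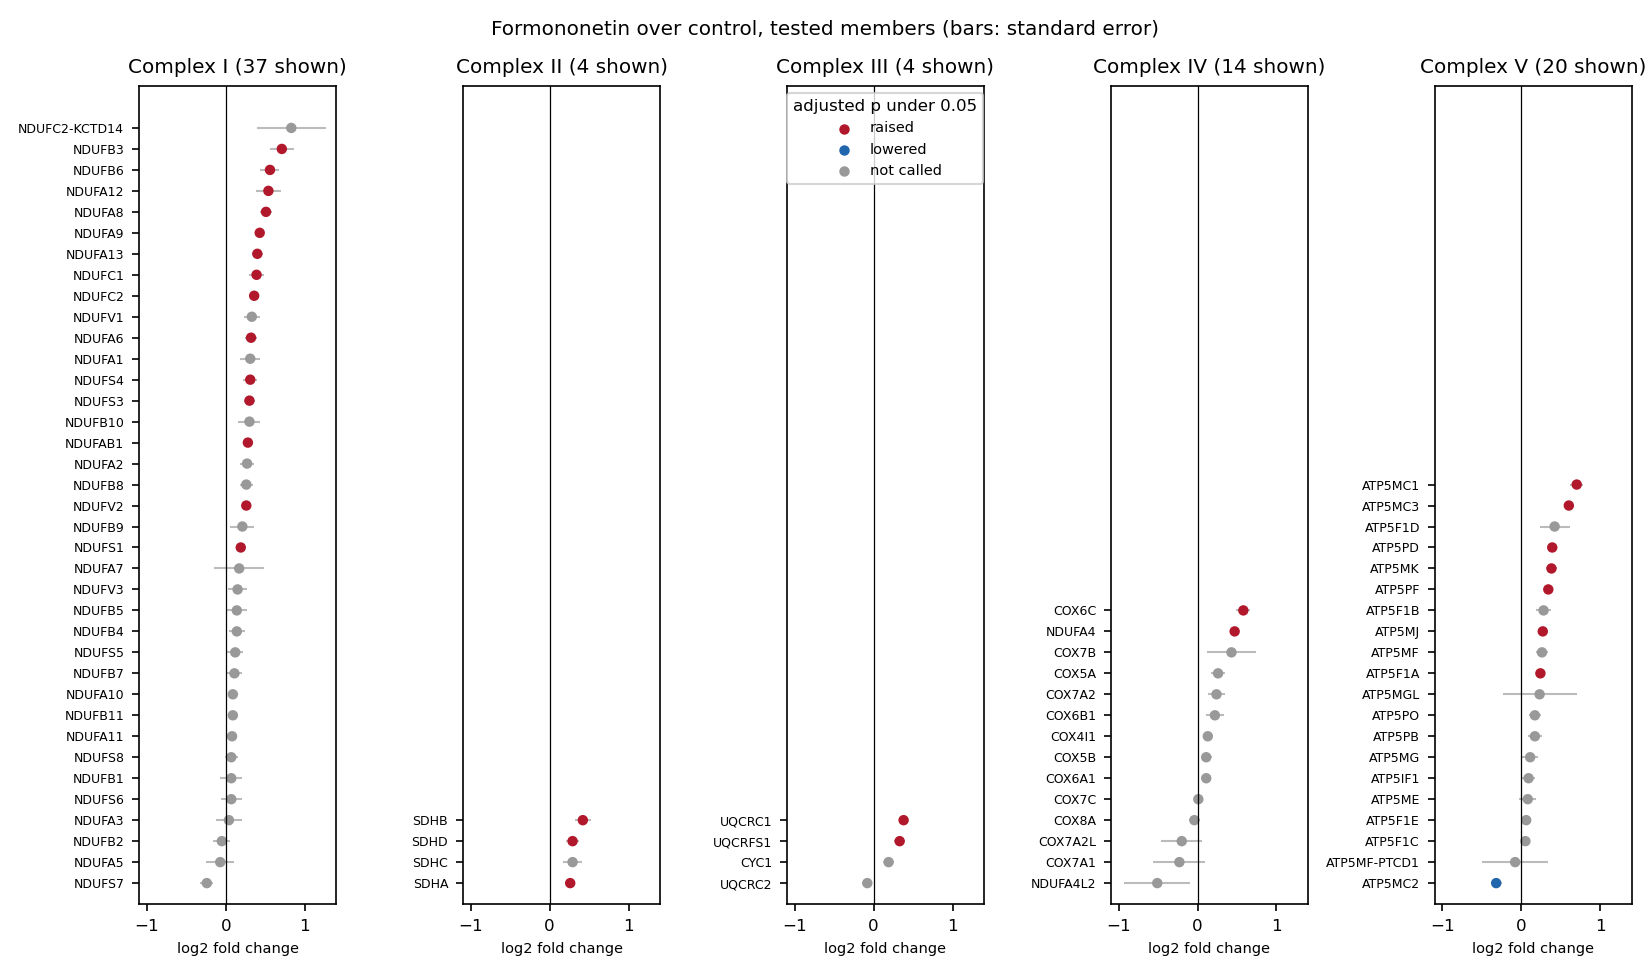
Log2 fold change, formononetin over control, of 79 of the 80 tested members by complex, with the standard error as a bar. Red points passed an adjusted p of 0.05 upwards, the blue point (ATP5MC2) downwards, and grey points did not pass, and most points of each complex lie to the right of 0.

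The promoters of members were read for motifs of factors known to bind respiratory chain genes, since many members moved together. RefSeq windows (GRCh38.p14) from 250 bases before to 50 bases after the annotated start were matched for 69 members, and both strands were searched for exact letters. Overlapping matches of different motifs were each counted. The NRF1 letters, GCGCA followed directly by TGCGC, were in windows of 4 members, 5.80%, against 1.99% of protein-coding genes with a window and 1.24% of all windows. The GABPA letters CCGGAAG were in 18 members, 26.1%, against 16.5% of protein-coding genes and 10.3% of all windows. The YY1 letters AAGATGGC were in 12 members, 17.4%, against 4.66% of protein-coding genes and 2.89% of all windows. The cyclic AMP response element letters TGACGTCA were in 5 members, 7.25%, against 3.0% of protein-coding genes and 1.85% of all windows. The SP1 letters GGGCGG were in 44 members, 63.8%, near the 64.3% of protein-coding genes, with 45.0% over all windows.

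The same motif letters occurred in risen and in other members. Of the 25 risen members with a window, 9 held the GABPA letters, 6 the YY1 letters, 2 the NRF1 letters and 2 the cyclic AMP response element letters. Of the other 44 members, 9 held the GABPA letters, 6 the YY1 letters, 2 the NRF1 letters and 3 the cyclic AMP response element letters. The SP1 letters were in 16 of the 25 and 28 of the 44. Equal counts are a larger share of the 25 risen members than of the 44 others, and the difference was not tested. The 44 include ATP5MC2, which fell, and COX6B2, which was not tested. A match is a description of letters and not a bound site. To show how such letters lie in members of either kind, 2 risen members, ATP5MC1 and ATP5PD, and 2 that did not pass the test, NDUFB4 and COX5B, are printed below on the strand of the gene, 5′ to 3′, from stretches that lie in no annotated GENCODE exon. Capitals mark whole motif matches on either strand, and positions count back from the RefSeq start, with -1 the last base before it.
ATP5MC1: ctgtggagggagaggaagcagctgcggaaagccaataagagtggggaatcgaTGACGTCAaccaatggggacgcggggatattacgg
ATP5PD: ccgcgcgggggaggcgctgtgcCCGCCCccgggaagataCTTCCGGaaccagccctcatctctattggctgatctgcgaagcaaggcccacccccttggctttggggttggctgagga
NDUFB4: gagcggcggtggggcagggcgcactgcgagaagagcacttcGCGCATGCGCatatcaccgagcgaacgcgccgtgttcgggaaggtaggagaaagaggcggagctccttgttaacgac
COX5B: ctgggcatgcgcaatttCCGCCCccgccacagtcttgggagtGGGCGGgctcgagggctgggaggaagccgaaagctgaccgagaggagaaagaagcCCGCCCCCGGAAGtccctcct

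The ATP5MC1 stretch (chr17:48892678-48892764, plus strand) holds the cyclic AMP response element letters at -57 to -50. The ATP5PD stretch (chr17:75046992-75047109, minus strand) holds the GABPA letters at -101 to -95 and the SP1 letters at -118 to -113. The NDUFB4 stretch (chr3:120596136-120596253, plus strand) holds the NRF1 letters at -159 to -150. The COX5B stretch (chr2:97645922-97646039, plus strand) holds the GABPA letters at -37 to -31, directly after SP1 letters at -43 to -38, with further SP1 letters at -123 to -118 and -98 to -93.

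Complex I, the NADH dehydrogenase, has a peripheral arm that carries the redox centres and a membrane arm that pumps protons. Of its 38 nuclear members 14 rose (36.8%, beside 12.0% of all genes) and 24 did not pass. The median log2 fold change was 0.23. The 14 were 3 of the 7 core subunits and 11 of the 30 supernumerary subunits, which surround the core, and the medians of the core and supernumerary subunits were 0.19 and 0.23. Summed over complex I, the level was 1447 ± 21.3 CPM in formononetin cells and 1246 ± 1.04 CPM in control cells (SD, n = 3 each).

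Among the core subunits, NDUFS1, the iron-sulphur protein with the most redox centres, rose by 0.19 ± 0.04 (SE) on the log2 scale with an adjusted p of 0.0213. NDUFS3 rose by 0.30 ± 0.07 and NDUFV2, an iron-sulphur protein of the NADH-oxidising tip, by 0.26 ± 0.06. NDUFV1, which binds NADH, was at 0.33 ± 0.10 and missed the threshold with an adjusted p of 0.0561, although its libraries did not overlap. NDUFS7, which carries the last iron-sulphur centre before ubiquinone, had a log2 fold change of -0.24 ± 0.08 and an adjusted p of 0.0820. Its level was 23.5, 22.4 and 20.4 CPM in formononetin libraries and 28.0, 24.7 and 25.7 CPM in control libraries, and with upper quartile scaling it passed as lower with an adjusted p of 0.0327. NDUFS8 was at 0.07 ± 0.08. The calls of NDUFS1, NDUFS3 and NDUFV2 each ended without 1 of several libraries, among them control replicate 3, and with upper quartile scaling.

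Among the supernumerary subunits, NDUFB3 (chr2:201071433-201085750), a small protein of the membrane arm, had the largest rise of any member. Its level was 18.1, 16.3 and 21.2 CPM in formononetin libraries and 9.69, 13.3 and 10.9 CPM in control libraries. The groups did not overlap, and the log2 fold change was 0.71 ± 0.15, a 1.64-fold higher level, with an adjusted p of 0.0142, which became 0.0528 without control replicate 3. NDUFB6, also in the membrane arm, was at 10.9, 11.8 and 9.42 CPM in formononetin libraries and 7.16, 7.95 and 6.60 CPM in control libraries. It rose 1.47-fold, with every formononetin library above every control library and an adjusted p of 0.0194, and the call ended without formononetin replicate 1 or 2 or control replicate 1 or 3, where the adjusted p was 0.0535 to 0.0643.

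NDUFA8, a cysteine-rich subunit on the intermembrane side, was at 31.6, 31.6 and 29.5 CPM in formononetin libraries and 22.8, 20.3 and 22.3 CPM in control libraries. It rose 1.42-fold with an adjusted p of 0.00336 and passed in every alternative run. NDUFA12, a subunit of the peripheral arm, was at 18.6, 15.0 and 19.5 CPM in formononetin libraries and 14.2, 12.6 and 9.87 CPM in control libraries. Its rise of 0.54 ± 0.16 lay at the threshold, with an adjusted p of 0.0498, and the call ended without formononetin replicate 1 or 3 or control replicate 2 or 3 and under 5 other alternatives.

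NDUFA9, which lies near the ubiquinone pocket, rose by 0.43 ± 0.05, NDUFC2 by 0.36 ± 0.04 and NDUFAB1, the mitochondrial acyl carrier protein, by 0.28 ± 0.05, and these also passed in every alternative. NDUFA13, NDUFC1, NDUFA6 and NDUFS4 rose by 0.31 to 0.40. NDUFA13 shares exon sequence on the same strand with other genes, and with their counts added its log2 fold change was 0.17 with an adjusted p of 0.120. The calls of NDUFC1, NDUFA6 and NDUFS4 ended without control replicate 3 and without formononetin replicate 1 or 3, among others. NDUFS5, the member of complex I with the highest level per kb of exon, 52.9 CPM per kb in formononetin cells and 48.7 CPM per kb in control cells, had 26.2, 27.0 and 33.7 CPM in formononetin libraries and 27.3, 26.1 and 26.7 CPM in control libraries. These overlapped, with a log2 fold change of 0.12 ± 0.10.

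The supernumerary subunits that did not pass ranged from -0.07 ± 0.18 for NDUFA5 to 0.31 ± 0.13 for NDUFA1. NDUFA7 was uneven within its groups, with 4.09, 10.1 and 9.06 CPM in formononetin libraries and 7.99, 5.78 and 6.92 CPM in control libraries, and its standard error of 0.32 was above its log2 fold change of 0.17. NDUFB2 and NDUFA5 were the supernumerary subunits below 0. The readthrough gene NDUFC2-KCTD14 lay under 1 CPM in every library and had the highest log2 fold change of any member, 0.83 ± 0.44, which did not pass (adjusted p 0.238). It shares exons with NDUFC2 and with KCTD14, so its reads cannot be told apart from those of these genes in this table.

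Complex II, succinate dehydrogenase, also works in the citric acid cycle and is encoded in the nucleus alone. Of its 4 genes 3 rose, where 12.0% of all genes rose. SDHA, the flavoprotein that oxidises succinate, was at 187, 183 and 196 CPM in formononetin libraries and 146, 162 and 165 CPM in control libraries. It rose by 0.26 ± 0.06 with an adjusted p of 0.0203. The genome holds near-identical SDHA pseudogenes with counts in every library, and with the counts of 4 of them added, the log2 fold change was 0.12 and the adjusted p 0.104. SDHB, the iron-sulphur subunit, was at 45.4, 50.3 and 53.8 CPM in formononetin libraries and 35.5, 42.4 and 33.7 CPM in control libraries, without overlap. It rose by 0.42 ± 0.10 with an adjusted p of 0.0277.

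Both membrane anchors of complex II, SDHC and SDHD, lay at a log2 fold change of 0.29. SDHD was at 53.4, 59.2 and 52.8 CPM in formononetin libraries and 47.4, 46.4 and 41.3 CPM in control libraries, and rose with an adjusted p of 0.0333. SDHC was at 120.0, 84.0 and 97.0 CPM in formononetin libraries and 85.5, 77.2 and 83.1 CPM in control libraries. Formononetin replicate 1 was high, 1 formononetin library lay within the control range, and SDHC did not pass with an adjusted p of 0.141, though it did without formononetin replicate 2 (0.0446). The call of SDHA ended without formononetin replicate 1 or 3, that of SDHB without formononetin replicate 2 or 3 or control replicate 1 or 3, and that of SDHD without each library but control replicate 1. The calls of SDHA, SDHB and SDHD also ended with upper quartile scaling, and that of SDHD with GC content and exon length in the model.

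Complex III, the cytochrome bc1 complex, was represented by 4 members, of which UQCRC1 and UQCRFS1 rose, where 12.0% of all genes rose. UQCRC1, a core protein on the matrix side, was at 194, 191 and 199 CPM in formononetin libraries and 154, 145 and 148 CPM in control libraries. It rose 1.3-fold with an adjusted p of 0.00109 and passed in every alternative. UQCRC2, its partner core protein and the complex III member with the highest level per kb of exon, was at 345, 351 and 352 CPM in formononetin libraries and 378, 361 and 366 CPM in control libraries. It had a log2 fold change of -0.08 ± 0.04 and did not pass with TMM scaling (adjusted p 0.200), while with upper quartile scaling it was lower with an adjusted p of 0.0248. Per kb of exon, UQCRC2 and UQCRC1 stood at 66.9 and 60.1 CPM per kb in formononetin cells and 70.5 and 46.1 CPM per kb in control cells.

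UQCRFS1, the Rieske iron-sulphur protein, was at 89.7, 76.6 and 81.6 CPM in formononetin libraries and 62.2, 68.3 and 67.1 CPM in control libraries. It rose by 0.33 ± 0.07 with an adjusted p of 0.0175, and the call ended without formononetin replicate 1 or 3 or control replicate 1, with adjusted p values up to 0.0558. With the replicate number as a block in the model the call ended too. CYC1, cytochrome c1, was at 55.8, 53.0 and 54.0 CPM in formononetin libraries and 51.8, 43.3 and 47.8 CPM in control libraries. Its libraries did not overlap, but its log2 fold change of 0.19 ± 0.07 had an adjusted p of 0.115. Of the complex III subunits that the naming rule does not take in, together with cytochrome c, UQCRH and CYCS rose and UQCRB fell among 7 tested, while 12.0% of all genes rose and 8.71% fell. CYCS, the electron carrier to complex IV, rose by 0.39 ± 0.07 with an adjusted p of 0.0101. UQCRH was at 0.24 ± 0.07 and UQCRB at -0.27 ± 0.07, and each of these calls ended without any 1 of 5 libraries.

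Complex IV, cytochrome c oxidase, had the smallest median, 0.12, and the lowest share of risen members, 2 of 14 tested (14.3%, near the 12.0% of all genes). The 14 include COX7A2L and the low-level tissue-restricted forms COX7A1 and NDUFA4L2, at -0.20, -0.23 and -0.51 on the log2 scale. Over the 11 general subunits alone the median was 0.22, near the 0.23 of complex I, and 2 rose (18.2%). The 2 risen members were COX6C and NDUFA4. COX6C, a membrane-spanning subunit, was at 57.6, 49.5 and 57.1 CPM in formononetin libraries and 38.1, 38.8 and 32.8 CPM in control libraries. It rose 1.50-fold, without overlap, and the adjusted p was 0.00459. NDUFA4, named for complex I but now counted as a subunit of complex IV, was at 80.3, 89.2 and 86.8 CPM in formononetin libraries and 61.8, 59.2 and 63.6 CPM in control libraries. It rose 1.39-fold with an adjusted p of 0.00173. Both passed in every alternative.

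The other general subunits of complex IV did not pass. COX4I1, the usual form of subunit IV, was at 91.5, 93.6 and 104 CPM in formononetin libraries and 89.7, 90.9 and 83.2 CPM in control libraries, a log2 fold change of 0.13 ± 0.06 without overlap. COX6A1, another general subunit, was at 104, 108 and 109 CPM in formononetin libraries and 104, 95.8 and 98.9 CPM in control libraries, a log2 fold change of 0.11 ± 0.05. COX7A2 was at 29, 31.5 and 31.0 CPM in formononetin libraries and 30.1, 25.1 and 22.4 CPM in control libraries, which overlapped. COX8A, which had a level per kb of exon of 78.2 CPM per kb in formononetin cells and 80.7 CPM per kb in control cells, the highest of complex IV in control cells, was at 36.7, 39.4 and 43.0 CPM in formononetin libraries and 42.3, 39.1 and 41.4 CPM in control libraries. These overlapped, and COX8A and COX7C were at -0.04 ± 0.07 and 0.01 ± 0.05 on the log2 scale.

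Single libraries set the spread of some complex IV genes. COX7B was at 14.1, 36.6 and 31.2 CPM in formononetin libraries and 20.4, 19.3 and 21.2 CPM in control libraries, so that formononetin replicate 1 lay below and the others above all controls. Its log2 fold change was 0.43 ± 0.31, and without formononetin replicate 1 it was 0.73 with an adjusted p of 0.00635. COX7A2L, which takes part in joining complexes III and IV, was at 47.0, 32.1 and 31.9 CPM in formononetin libraries and 35.4, 60.7 and 31.6 CPM in control libraries, with control replicate 2 far above the rest and a log2 fold change of -0.20 ± 0.26. Without control replicate 3, COX6B1 passed as higher, with a log2 fold change of 0.35 and an adjusted p of 0.0389, and without control replicate 1 so did COX5A and COX7A2, at 0.35 and 0.36.

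The tissue-restricted forms of complex IV subunits were at or near 0. COX6A2 and COX7B2, the muscle and testis forms, had no count in any library, and COX4I2, a hypoxia-responsive form known from lung, had none in formononetin libraries and at most 0.0558 CPM in a control library. A library without a count allows a level of up to 0.0662 to 0.0786 CPM in formononetin and 0.0837 to 0.0986 CPM in control libraries, the level of 3 counts, for counting error only. COX6B2 and COX8C were also too low to test, with at most 0.412 CPM in any library. COX7A1, the heart and muscle form, was at 0.496, 0.471 and 0.397 CPM in formononetin libraries and 0.592, 0.335 and 0.678 CPM in control libraries. NDUFA4L2, a hypoxia-inducible relative of NDUFA4, was at 1.14, 1.62 and 0.485 CPM in formononetin libraries and 2.0, 1.26 and 1.36 CPM in control libraries. Both overlapped between groups, with standard errors of 0.33 and 0.42 on the log2 scale.

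Complex V, the ATP synthase, joins a catalytic head that makes ATP to a proton-driven rotor in the membrane. Of its 20 members 7 rose (35.0%, beside 12.0% of all genes) and 1 fell (beside 8.71% of all genes). The median was 0.24 on the log2 scale. ATP5F1A, the alpha subunit of the head, was at 446, 438 and 429.6 CPM in formononetin libraries and 352, 387 and 370.1 CPM in control libraries. It rose 1.18-fold, without overlap, with an adjusted p of 0.00962, and passed in every alternative. ATP5F1B, the catalytic beta subunit, was at 339, 439 and 345 CPM in formononetin libraries and 292, 307 and 322 CPM in control libraries. Every formononetin library lay above every control library, but replicate 2 was high and the log2 fold change of 0.28 ± 0.10 did not pass (adjusted p 0.0910). ATP5F1B had the highest level per kb of exon of all members, 161 CPM per kb in formononetin cells and 132 CPM per kb in control cells.

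The rest of the head and central stalk did not pass. ATP5F1C and ATP5F1E were at 0.05 ± 0.05 and 0.06 ± 0.06, and ATP5F1D at 0.42 ± 0.19, where control replicate 1 was low. In the peripheral stalk, which holds the head still, ATP5PD rose by 0.39 ± 0.06 and ATP5PF by 0.34 ± 0.06, and both passed in every alternative, while ATP5PB and ATP5PO were at 0.17 ± 0.09 and 0.17 ± 0.08. Among the small membrane subunits, ATP5MK rose by 0.38 ± 0.07 and ATP5MJ by 0.27 ± 0.06. The ATP5MJ call ended without formononetin replicate 1 or 3 or control replicate 2 or 3, with upper quartile scaling and with the replicate number as a block. ATP5MF was at 0.26 ± 0.08 with an adjusted p of 0.0579, and ATP5MG and ATP5ME were at 0.11 ± 0.10 and 0.08 ± 0.11. ATP5IF1, the inhibitor of the reverse reaction of the enzyme, was at 18.9, 20.3 and 19.4 CPM in formononetin libraries and 19.8, 17.2 and 18.1 CPM in control libraries, which overlapped. ATP5MGL and ATP5MF-PTCD1 were under 2 CPM in every library and did not pass.

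The 3 genes for the c subunit, the rotor protein that carries protons through the membrane, moved in opposite directions. They encode the same mature protein behind different import sequences. ATP5MC1 (chr17:48892765-48895871) was at 36.9, 38.9 and 42.2 CPM in formononetin libraries and 25.9, 23.1 and 23.6 CPM in control libraries. It rose 1.63-fold, with a log2 fold change of 0.70 ± 0.08 and an adjusted p of 0.00118. ATP5MC3 (chr2:175176258-175184607) was at 122, 118 and 131 CPM in formononetin libraries and 84.7, 80.6 and 79.4 CPM in control libraries. It rose 1.52-fold, with a log2 fold change of 0.60 ± 0.06 and an adjusted p of 6.32e-04, and both genes passed in every alternative.

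ATP5MC2 (chr12:53632726-53677408) was at 46.6, 49.0 and 53.3 CPM in formononetin libraries and 66.3, 60.8 and 58.9 CPM in control libraries. The groups did not overlap, and it was the only member to fall, with a log2 fold change of -0.32 ± 0.07 and an adjusted p of 0.0203. The log2 fold change was -0.27 to -0.33 without formononetin replicate 1 or 2 or control replicate 1 or 2, and the adjusted p was then 0.0501 to 0.0687. The call also ended with the replicate number as a block in the model.

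As a share of the summed CPM of the 3 genes, ATP5MC2 made up 23.3 ± 0.601% in formononetin cells and 36.9 ± 0.557% in control cells (SD, n = 3 each). By an exact two-sided permutation test the p was 0.1, the smallest that 3 against 3 libraries allow. Since all 3 genes were already separated in CPM, this p was fixed by those levels and is no further support. ATP5MC3 made up 58.2 ± 1.09% in formononetin cells and 48.6 ± 0.671% in control cells, and ATP5MC1 18.5 ± 0.489% in formononetin cells and 14.4 ± 0.335% in control cells. These shares are not per length, and they do not depend on how the libraries were scaled. The 3 genes together gave 213 ± 12.1 CPM in formononetin cells and 168 ± 8.07 CPM in control cells. The transcript levels of the c subunit genes thus shifted towards ATP5MC1 and ATP5MC3 while their sum was higher.

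**Figure D3:**
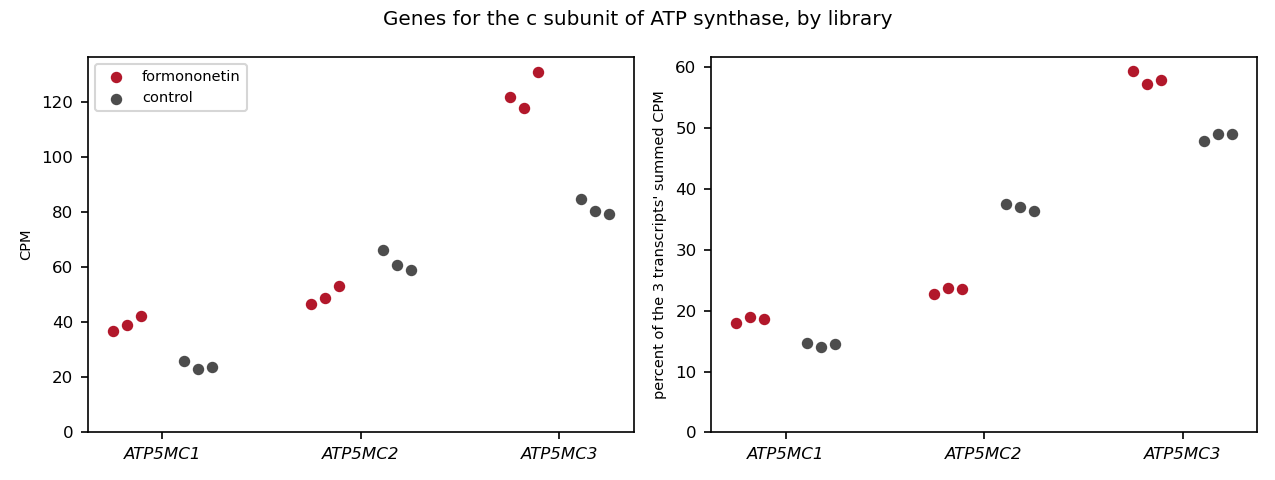
Level in CPM (left) and share of the summed CPM in percent (right) of ATP5MC1, ATP5MC2 and ATP5MC3 in each of 3 formononetin libraries (red, left of each pair) and 3 control libraries (grey). ATP5MC1 and ATP5MC3 are higher and ATP5MC2 is lower in every formononetin library than in any control library, in CPM and in share.

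The mitochondrially encoded subunits assemble with the members of complexes I, III, IV and V. Of the 13, MT-ND6 rose, MT-CO1 and MT-CYB fell and the median log2 fold change was -0.05, which ran from -0.15 without formononetin replicate 3 to 0.05 without formononetin replicate 1, and lay at -0.13 with upper quartile scaling and at 0.01 with GC content and exon length in the model. The share that rose was 7.69%, against 12.0% of all genes, and the 2 that fell stand beside 8.71% of all genes. MT-CO1, the catalytic subunit of complex IV, was at 10191, 11776 and 12372 CPM in formononetin libraries and 16480.2, 16919 and 16928 CPM in control libraries. It fell to 0.682-fold of control, with an adjusted p of 0.00189. MT-CYB of complex III was at 1873, 2192 and 2430.4 CPM in formononetin libraries and 2847, 2913 and 2779 CPM in control libraries, with an adjusted p of 0.0189, and that call ended without formononetin replicate 2 or any 1 control library. MT-ND6 of complex I was at 662, 711 and 782 CPM in formononetin libraries and 573, 562 and 560.2 CPM in control libraries and rose with an adjusted p of 0.00791.

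By complex, the mitochondrially encoded sum was 14607 ± 1768 CPM in formononetin cells and 20660.5 ± 295 CPM in control cells for complex IV. For complex I it was 12009 ± 1816 CPM in formononetin cells and 12489 ± 256 CPM in control cells, and for complex V 2904 ± 519 CPM in formononetin cells and 2886 ± 111 CPM in control cells, both overlapping. The formononetin libraries differed among themselves, with replicate 1 the lowest. The nuclear members made up 15.2%, 13.4% and 12.2% of the summed CPM of nuclear and mitochondrially encoded subunits in formononetin libraries and 9.93%, 9.79% and 9.91% in control libraries. The mitochondrially encoded sum averaged 31686 CPM in formononetin cells and 38881 CPM in control cells. Most of that difference was MT-CO1, which averaged 11446 CPM in formononetin cells and 16776 CPM in control cells. The nuclear genome holds near-identical copies of some mitochondrial genes, among them MTCO1P12, MTND2P28 and MTATP6P1, whose reads may have been split from them in counting, so these levels are uncertain. The difference in change between the nuclear and the mitochondrially encoded genes was not tested.

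Genes that work beside the respiratory chain were counted in the same fit. Of 20 complex I assembly factors 7 rose and 13 did not pass, a share of 35.0% beside 12.0% of all genes, and their median was 0.12. NDUFAF1 had the largest log2 fold change, 0.89 ± 0.22, from 5.03, 5.63 and 5.89 CPM in formononetin libraries and 2.27, 4.02 and 2.59 CPM in control libraries, but its call ended without each library except control replicate 2. TMEM126B, which acts in building the membrane arm, rose by 0.46 ± 0.09 and passed in every alternative. Of 26 complex IV assembly factors 7 rose (26.9%, beside 12.0% of all genes) and 1, COX19, fell (beside 8.71% of all genes). Their median was 0.15, and the largest rise was HIGD1A at 0.56 ± 0.15, followed by COA6 at 0.42 ± 0.10. The COX19 and HIGD1A calls each ended without any 1 of 5 libraries, and that of COA6 without any 1 of 4.

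Of 4 complex II assembly factors, 0 passed in edgeR, DESeq2 or limma, and 1 had an unadjusted p under 0.05 in edgeR. Among 8 complex III assembly factors UQCC6 fell, at -0.36 ± 0.10, a call that ended without each library except formononetin replicate 2. Among 5 complex V assembly factors ATPSCKMT, an enzyme that methylates the c subunit, rose by 0.61 ± 0.12. Its adjusted p was 0.0106 and it passed in every alternative. Beside these counts, 12.0% of all genes rose, 8.71% fell and 20.7% passed in either direction in edgeR.

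Of 14 citric acid cycle enzymes tested, 7 rose and 7 did not pass, where 12.0% of all genes rose, and their median was 0.22. IDH2, the NADP-dependent isocitrate dehydrogenase of mitochondria, was at 95.6, 91.2 and 89.7 CPM in formononetin libraries and 62.9, 59.9 and 52.5 CPM in control libraries, 1.58-fold higher with an adjusted p of 0.00121. FH, fumarase, which acts directly after complex II, was at 59.9, 60.2 and 65.5 CPM in formononetin libraries and 43.7, 40.9 and 35.2 CPM in control libraries, 1.55-fold higher. Both passed in every alternative. Of 9 tested genes in a list linked to other electron entry at ubiquinone 4 rose and 5 did not pass, a share of 44.4% beside 12.0% of all genes. Their median was 0.29. The 4 were ETFA, ETFB, AIFM1 and AIFM2, and not all of them pass electrons to ubiquinone directly. ETFDH was at 0.43 ± 0.13 and did not pass in edgeR's test (adjusted p 0.0637). AIFM2, which reduces ubiquinone outside mitochondria, rose by 0.48 ± 0.06, and ETFB, which passes on electrons from fatty acid oxidation, by 0.37 ± 0.05.

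Of 15 tested regulators of mitochondrial gene expression 2 rose and 1 fell, with a median of 0.07. The share that rose was 13.3%, near the 12.0% of all genes, and the 1 that fell stands beside 8.71% of all genes. PPARGC1B, a coactivator of respiratory genes, was at 15.3, 16.2 and 14.6 CPM in formononetin libraries and 6.54, 7.95 and 8.16 CPM in control libraries, 2.03-fold higher with an adjusted p of 0.00109. Its relative PPARGC1A was at 117, 115 and 118 CPM in formononetin libraries and 127, 140.1 and 144 CPM in control libraries, 0.852-fold of control with an adjusted p of 0.0265, a call that ended without each library except control replicate 1. TFAM, which packages mitochondrial DNA and activates its transcription, was 1.36-fold higher with an adjusted p of 0.00505. PPARGC1B and TFAM passed in every alternative.

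**Figure D4:**
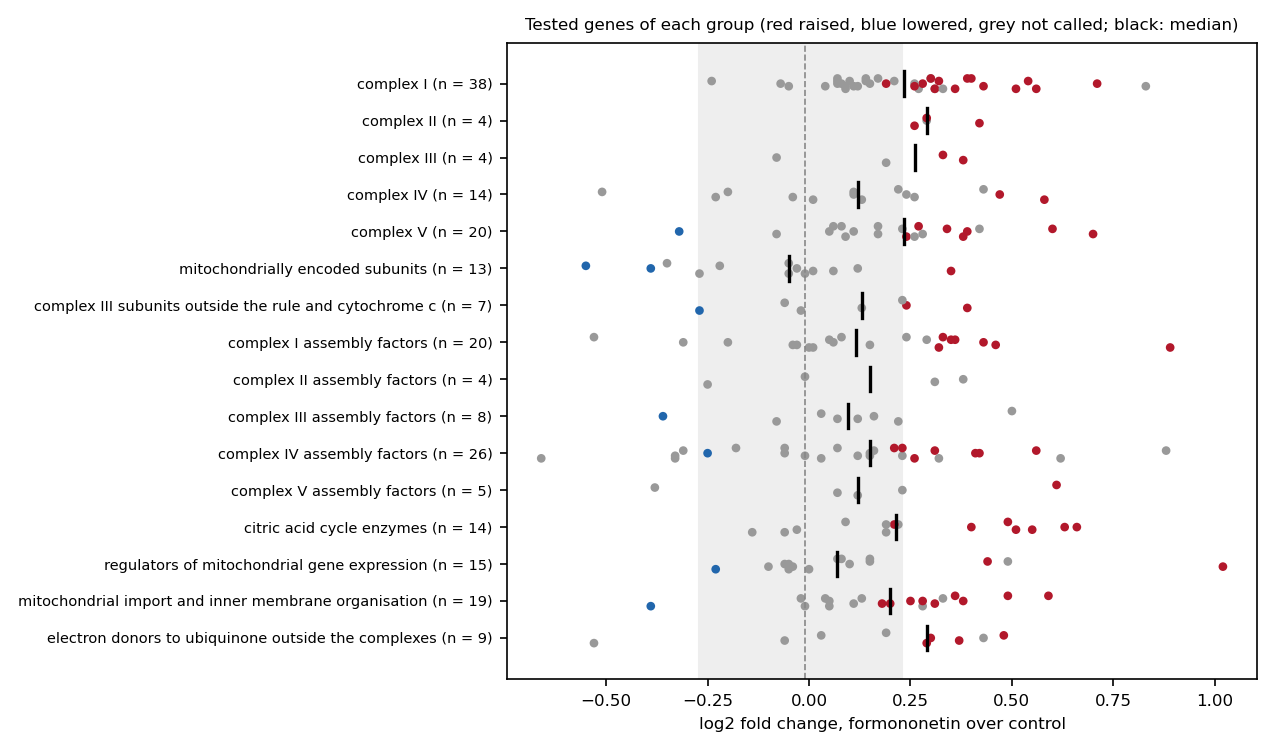
Log2 fold change, formononetin over control, of each tested gene by group, with the group's median as a black bar, the median of all genes as a dashed line and their middle range between quartiles shaded. The medians of the 5 complexes lie between 0.12 and 0.29, that of the mitochondrially encoded subunits at -0.05 and that of all genes at -0.01.

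The members shared features that the rule did not use. Their median exon length was 2545 bases, against 4942 bases for tested protein-coding genes, and their median GC content was 47.9%, against 48.9%. They were abundant, with a median of 40.0 CPM against 21.5 CPM for tested protein-coding genes. Among the 73 members whose mean log2 CPM reached 3, the log2 fold change had a Pearson correlation of -0.16 with log2 exon length, -0.09 with GC content and -0.08 with level, across genes, which are not independent replicates. With GC content and exon length in the model, 29 members rose and 1 fell. Pseudogene rows named after 47 members were in the table, 181 in all, and 26 members shared at least 50 bases of exon with another gene on the same strand, so levels of such members are uncertain.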

How the data were processed

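The authors deposited raw counts, whole numbers per gene, for 6 libraries. Per the labels' protocols, libraries were made with a stranded mRNA kit, and per the submitters' processing notes STAR 2.5.3a, StringTie 1.3.1c and the GRCh38 build were used. Which program counted, with which annotation and strand setting, is not given in the sources used here. Genes that overlap on either strand are therefore uncertain. Numbered assembled loci (2165 of 62729 rows, 3.82 to 5.62% of counts) name no gene and were left out. Symbols matched 60295 identifiers, and coordinates came from GENCODE 29 for 58457. DMAC2L, formerly ATP5S, was not a member under its current symbol.

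Genes were filtered by filterByExpr and scaled by TMM, and the groups of 3 libraries were compared with group as the single term in edgeR 4.0.16 (two-sided quasi-likelihood F test, R 4.3.3), with Benjamini-Hochberg adjustment over 22230 genes at a threshold of 0.05. Dividing a log2 fold change by the root of its F statistic gave the standard error. The biological coefficient of variation was 0.157. For library pairs of the same group, chi-square was 13.5 to 34.6 times its degrees of freedom, so no library repeats another. Alternatives used limma 3.58.1, DESeq2 1.42.0, other scalings, filters and models, and left out each library in turn. The labels name no batch.

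Values in every library were given for the 8 largest rises and falls past the threshold among members whose mean log2 CPM reached 3, the highest per kb and most changed member of each complex, and a fixed list. NDUFS7, NDUFA7, COX7B and COX7A2L were added after their values were seen. The members and lists were chosen with earlier results of these data known. The values of 1 member are not reported here, although it is in the counts.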

Additional observations from a re-analysis of the deposited data

How the results depend on the processing

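None of the 28 risen members changed sign under any of the 19 alternatives, and 13 of them passed in all. Some members that passed in neither run did change sign. They included COX7A2L, at -0.20 in the main run and up to 0.14 in an alternative, and ATP5MGL, at 0.23 and down to -0.24. The members' median lay 0.22 to 0.28 above that of all genes under the other filters, models and left-out libraries, while a change of scaling moves both alike. With upper quartile scaling 18 members rose and 3 fell, and the medians were 0.16 for all members, 0.15 for complex I, 0.21 for II, 0.18 for III, 0.04 for IV and 0.16 for V. With library totals they were 0.28 for all members, 0.28 for complex I, 0.34 for II and 0.28 for V. The complex I median was 0.19 with a filter of 1 CPM in 3 libraries and 0.20 with overlapping genes added, an alternative chosen after seeing the data. Leaving out 1 library gave 18 to 25 risen and 0 to 1 fallen members, 1703 to 2189 risen and 1272 to 1478 fallen genes, and medians of 0.21 to 0.23 for all members, 0.20 to 0.23 for complex I, 0.29 to 0.34 for II, 0.21 to 0.29 for III, 0.08 to 0.16 for IV and 0.20 to 0.27 for V. Same-numbered libraries did not deviate together (correlations of -0.002, 0.009 and -0.022). These values give no sign that the numbers pair the libraries, but they cannot exclude a shared culture or day. With the replicate number as a block, 20 members rose and 0 fell by edgeR. Many calls of related genes that ended without single libraries also ended with upper quartile scaling or with this block. The causes were not tested. With 3 libraries a group, members near or under 1 CPM had standard errors up to 0.47, so changes of the size seen here were not detectable for them.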

Other observations

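Genes for protein import and for the shape of the inner membrane, through which nuclear subunits reach their complexes, were not part of the members. Of 19 tested, 9 rose (47.4%, beside 12.0% of all genes) and 1 fell (beside 8.71% of all genes), and the median was 0.20 on the log2 scale. MICOS10 and APOO, parts of the complex that forms cristae, had the largest rises, 0.59 ± 0.15 and 0.49 ± 0.13, and their calls ended without any 1 of 4 libraries for MICOS10 and without each library for APOO. TIMM17A and TIMM23, which form the inner membrane import channel, rose by 0.36 ± 0.07 and 0.31 ± 0.06 and passed in every alternative. TOMM20, an import receptor of the outer membrane, was at 209.7, 207 and 204 CPM in formononetin libraries and 271, 273 and 270.2 CPM in control libraries. It fell to 0.763-fold of control with an adjusted p of 5.62e-04 in edgeR's test, and passed in every alternative.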
